A study of Homo sapiens with 6 samples.

Results

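The genes described here encode potassium, calcium, chloride and transient receptor potential (TRP) channels and their accessory subunits. They were chosen by name from the deposited transcript table. Every gene with a KCN, TRPC, TRPM, TRPV, CLCN or voltage-gated calcium channel (alpha-1, alpha-2-delta, beta or gamma) symbol was taken. So was every gene whose symbol has SCN followed by a number. The SCNN genes did not meet the rule and were counted with the other cation channels. The rule found 40 genes with 79 transcripts, of 11848 genes with 29091 transcripts in the table, and 32 of the 40 averaged 1 FPKM or more and were tested. FPKM is a level scaled to transcript length and to the mapped reads of the library, and was summed here over the transcripts of a gene. The table held protein-coding transcripts only, each with a mean of at least 0.5 FPKM in 1 group or both, so a channel gene that is not among the 40 was not analysed here. TRPC4AP met the rule by its symbol, but it encodes a protein that binds a TRP channel and is no channel itself.

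The study asked what the long non-coding RNA PCAT1 does in castration-resistant prostate cancer. RNA was sequenced from LNCaP-AI, an androgen-independent human prostate cancer line that the study derived from LNCaP by long culture without androgen. In 3 samples the cells carried a scramble shRNA (shSCR) and in 3 an shRNA against PCAT1 (shPCAT1), and no other agent was named in the labels. All 6 samples come from this single androgen-deprived line and from 1 target sequence for PCAT1, and the labels do not say whether the replicates were separate cultures, so p-values measure only the spread between these samples. The knockdown was not checked, because PCAT1 is not analysed here.

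Potassium channels carry potassium out of the cell and set the resting membrane potential. Voltage-gated calcium channels, many TRP channels and their partners let calcium in, where it acts as a signal. CLC proteins carry chloride, some of them as channels of the plasma membrane and others as chloride/proton exchangers of endosomes and lysosomes. In the prostate, TRPM8 is known as a cold- and menthol-activated channel of luminal cells whose expression depends on androgen, and TRPV6 as a calcium-selective channel that is abundant in prostate cancer. KCNQ1 is a voltage-gated potassium channel of heart muscle and of secreting and absorbing epithelia, where KCNE subunits set its gating.

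The starts of 3 of these genes are shown: KCNH2 as a GC-rich and TRPM8 as an AT-rich gene among those with the smallest p-values, since the changes varied with GC content, and TRPV6 as the other TRP channel known from the prostate. RefSeq promoter sequences (GRCh38.p14, 250 bases before and 50 bases after the start) were found for 29 of the 40 genes, and 20 of these matched the start of the highest listed transcript. Among the genes with no entry in the table were CACNA1H, KCNAB3, KCNG1, KCNH3, KCNJ11, KCNJ9, KCNQ1 and TRPM5. Capitals mark the word GGGCGG, which is the core of the site that SP-family factors bind. They also mark the word TATAAA, which is found upstream of some starts. Each was searched on both strands, and the words do not overlap each other.
KCNH2, chr7:150978272-150978571 (minus strand): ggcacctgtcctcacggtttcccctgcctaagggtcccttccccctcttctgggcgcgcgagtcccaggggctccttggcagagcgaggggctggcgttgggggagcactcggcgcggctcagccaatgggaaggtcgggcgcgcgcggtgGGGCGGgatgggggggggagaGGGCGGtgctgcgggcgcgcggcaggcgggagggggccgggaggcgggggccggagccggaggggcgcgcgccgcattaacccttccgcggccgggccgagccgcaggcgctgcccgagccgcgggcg
TRPM8, chr2:233917123-233917422 (plus strand): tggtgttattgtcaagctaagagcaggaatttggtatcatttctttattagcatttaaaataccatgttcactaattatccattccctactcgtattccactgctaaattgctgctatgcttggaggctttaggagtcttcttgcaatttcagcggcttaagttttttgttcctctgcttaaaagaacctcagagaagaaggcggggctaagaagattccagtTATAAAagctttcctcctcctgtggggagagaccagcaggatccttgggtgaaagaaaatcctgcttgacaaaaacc
TRPV6, chr7:142885696-142885995 (minus strand): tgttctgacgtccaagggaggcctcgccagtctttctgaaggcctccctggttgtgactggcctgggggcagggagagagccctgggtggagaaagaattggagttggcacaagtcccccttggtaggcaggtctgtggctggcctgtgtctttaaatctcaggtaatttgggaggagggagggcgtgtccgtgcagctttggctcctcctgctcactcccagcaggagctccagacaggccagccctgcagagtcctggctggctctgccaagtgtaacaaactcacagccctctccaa
The KCNH2 window had a GC content of 78.3%, 39 CpG dinucleotides and 2 matches to GGGCGG. The TRPM8 window had a GC content of 41%, 3 CpG dinucleotides, no GGGCGG and 1 TATAAA. The TRPV6 window had a GC content of 59.3% and 4 CpG dinucleotides, with neither word. A match to GGGCGG was present in 13 of the 20 matched windows and in 45% of all 35116 promoters, and a match to TATAAA in 2 of the 20 and in 11.5% of all promoters. These matches describe the letters and are no evidence of binding.

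The depth of the libraries is unknown, since the table gives FPKM and no counts. The library of shSCR replicate 3 stood apart: its Pearson correlation with the other libraries over all tested genes was 0.809 to 0.845 on the log2(FPKM + 1) scale, against 0.910 to 0.946 among the other 5. Its excess over the other shSCR samples rose with the GC content of the transcript (Spearman's rho 0.58 across 10748 genes). Among the 32 tested channel genes, shSCR replicate 3 was the highest of the 6 samples for 15 and the lowest for 6. The line carried its luminal prostate markers, with all 9 listed and 0 called, and 8 of their 9 changes lay below 0 (median -0.35). Their summed level was 1643 to 2084 FPKM in shSCR and 1327 to 1498 FPKM in shPCAT1, and HOXB13, which is 1 of them, ran from 0.0555 FPKM in shSCR replicate 2 to 152.9 FPKM in shSCR replicate 3. Of the basal markers KRT5 and KRT14 lay between 0.284 and 2.23 FPKM. Of the neuroendocrine markers SYP lay between 0.524 and 0.980 FPKM and ENO2 between 15.1 and 27.3 FPKM. Of the mesenchymal and leukocyte markers, none of 3 tested was called, and FN1 lay at 140.3 to 213.1 FPKM in shSCR and at 257.7 to 266.3 FPKM in shPCAT1 with no overlap. COL1A1 went the other way, with 5.94 to 12.3 FPKM in shSCR and 2.27 to 4.12 FPKM in shPCAT1 and no overlap. VIM overlapped between groups. The part of these markers in the channel results was not tested.

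Of the 32 channel genes tested, KCNQ1 was lower in shPCAT1 at an adjusted p of at most 0.05, and no channel gene passed in the other direction (limma with Benjamini-Hochberg adjustment over all 10825 genes tested). Over all genes tested, 0.878% were called, 0.545% lower and 0.333% higher. At an unadjusted p of at most 0.05, 7 channel genes were lower and 0 higher, beside a background of 10% lower and 7.23% higher. These 7 were KCNQ1, KCNH2, CACNA1H, KCND3, KCNAB2, TRPM8 and KCNG1. The values of the groups did not overlap for 11 channel genes that were lower and 4 that were higher in shPCAT1, beside 17.7% and 14.8% of all genes tested. Of the 32 changes 22 lay below 0 and 10 above, with a median of -0.23 on the log2(FPKM + 1) scale, against a median of -0.05 over all genes, of which 54.2% lay below 0. Without shSCR replicate 3, 7 channel genes were called, all lower, beside a background of 8.03% called and 4.4% called lower: KCNQ1, KCNH2, CACNA1H, KCND3, KCNG1, TRPM8 and KCNN2. No channel gene was called when shSCR replicate 1 or 2 or shPCAT1 replicate 1, 2 or 3 was left out in its place, where 0.102%, 0.0739%, 0.0739%, 0.037% and 0.0554% of all genes were called. Nor was any called with a limit of 5 FPKM (0.677% of all genes), with the highest transcript of each gene in place of the sum (0.151%) or with a block for the replicate number (0.0185%), while an ordinary test without limma's shared variance called CLCN4 alone (1.85%). In these bulk samples, fewer cells that express a gene and less RNA per cell cannot be told apart.

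**Figure D1:**
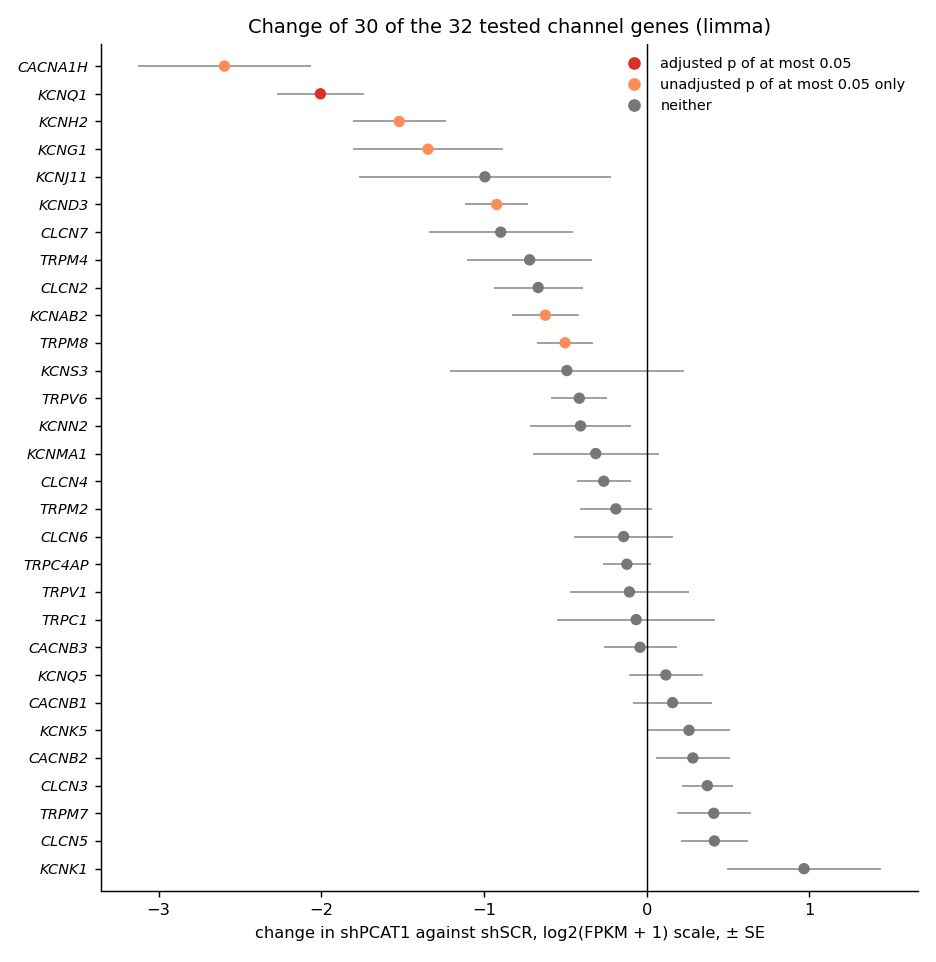
Change of 30 of the 32 tested channel genes in shPCAT1 against shSCR (horizontal axis, difference on the log2(FPKM + 1) scale, point ± SE from limma, 3 samples a group). KCNQ1 (red) has an adjusted p of at most 0.05, the orange genes only an unadjusted p of at most 0.05, and CACNA1H is the single gene with a larger decrease than KCNQ1.

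The voltage-gated potassium pores were the largest class, with 10 genes, of which 8 were tested. Of these, 5 changes lay below 0 and 3 above, with a median of -0.71. KCNQ1 (hg19, as for every gene position given from here on, chromosome 11, 2466221 to 2870339, plus strand, 1 listed transcript of 16 exons) was listed at 6.12, 4.46 and 9.53 FPKM in shSCR replicates 1, 2 and 3, and at 0.809, 0.841 and 0.902 FPKM in shPCAT1. Every shPCAT1 sample lay below every shSCR sample, and the shPCAT1 samples lay close together. The mean was 6.71 ± 2.58 FPKM in shSCR and 0.851 ± 0.0472 FPKM in shPCAT1 (SD, n = 3 each), 7.88-fold lower. On the log2(FPKM + 1) scale KCNQ1 fell by 2.01 (SE 0.27, limma adjusted p = 0.0418). The call was lost when shSCR replicate 1 or 2 or any shPCAT1 sample was left out, with changes of -2.23 to -1.99 and adjusted p of 0.0780 to 0.224, and was kept without shSCR replicate 3 (-1.75, SE 0.16, adjusted p = 0.0165).

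KCNH2, the hERG potassium channel of the rapid delayed rectifier current in heart (chromosome 7, 150642049 to 150675403, minus strand, 15 exons), was listed at 5.14, 3.40 and 7.80 FPKM in shSCR and at 1.06, 1.41 and 1.03 FPKM in shPCAT1. The groups did not overlap, and shSCR replicate 3 was again the highest. The change was -1.52 (SE 0.29, limma adjusted p = 0.0863), and -1.27 without shSCR replicate 3 (adjusted p = 0.0358). KCND3, a pore of the transient outward potassium current (chromosome 1, 112318431 to 112531777), was listed at 1.96, 1.91 and 2.67 FPKM in shSCR and at 0.771, 0.569 and 0.672 FPKM in shPCAT1. Its groups did not overlap, but the transcript differed within shSCR. Replicates 1 and 2 had KCND3-001 alone, at 1.96 and 1.91 FPKM, whereas replicate 3 had 0.104 FPKM of it and 2.57 FPKM of KCND3-002, which was listed at 0 in the other 5 samples. The gene's change was -0.92 (SE 0.19, adjusted p = 0.106), and -0.81 without shSCR replicate 3 (adjusted p = 0.0373).

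KCNG1, a silent subunit that passes current only together with other potassium channel subunits (chromosome 20, 49620193 to 49639666), had the highest mean of its class. It was listed at 15.2, 13.4 and 46.0 FPKM in shSCR and at 7.06, 8.05 and 8.15 FPKM in shPCAT1. The groups did not overlap, and shSCR replicate 3 lay far above every other sample. The change was -1.34 (SE 0.46, adjusted p = 0.239) with that library and -0.80 (SE 0.11, adjusted p = 0.0283) without it. Of its 5 listed transcripts, 4 were highest in shSCR replicate 3, and KCNG1-005 was listed at 0 there.

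The other pores of the class did not pass the test. KCNS3, another silent subunit, was listed at 1.42, 6.88 and 7.73 FPKM in shSCR and at 5.37, 4.82 and 0.623 FPKM in shPCAT1, so that 1 sample of each group lay far below the rest and the groups overlapped. KCNQ5, a relative of KCNQ1 that carries part of the neuronal M-current, had a change of 0.12 (SE 0.23, limma adjusted p = 0.799). It was listed at 1.09, 1.96 and 2.28 FPKM in shSCR and at 2.11, 2.02 and 1.76 FPKM in shPCAT1, so its groups overlapped. The change of KCNQ5 turned to -0.07 without shSCR replicate 1. KCNH3 lay below a mean of 1 FPKM and was not tested, and its groups did not overlap (0.616 to 0.827 FPKM in shSCR against 0.291 to 0.504 FPKM in shPCAT1). KCNH3 averaged 0.378 FPKM in shPCAT1 and was listed only through shSCR, so its separation is no support for a decrease.

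**Figure D2:**
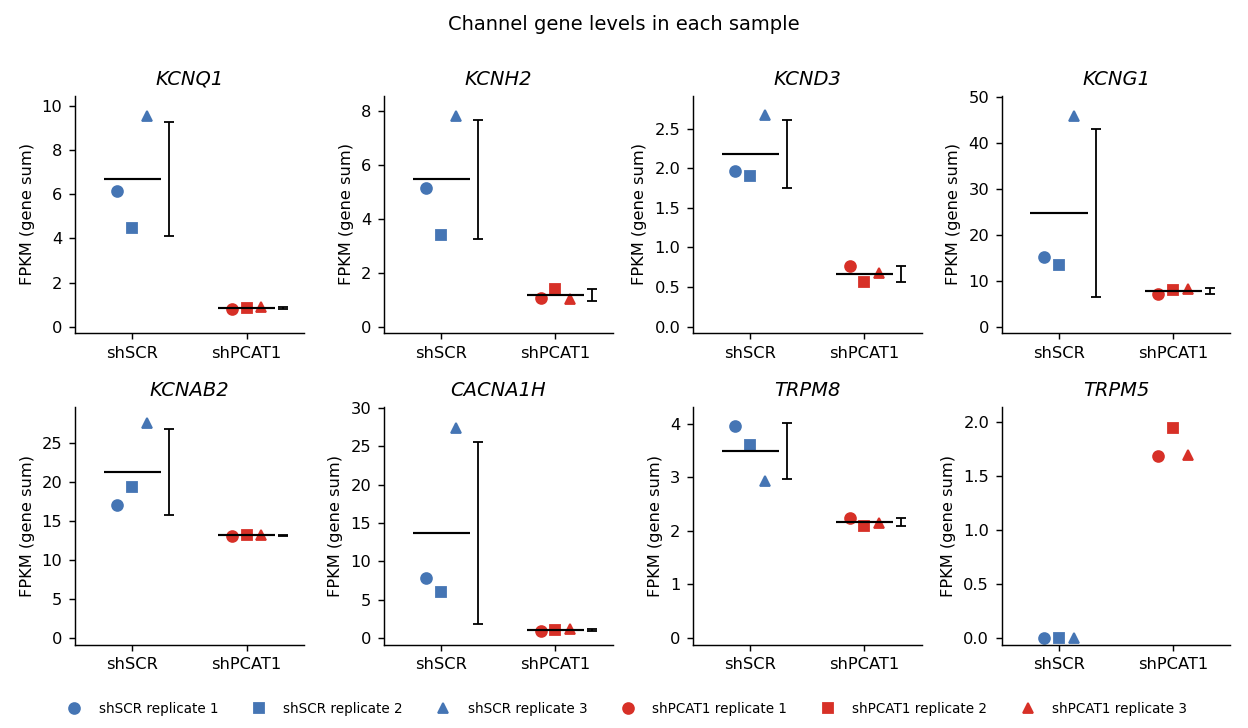
FPKM summed per gene in each of the 6 samples (points, shape by replicate number) for the 7 channel genes with an unadjusted p of at most 0.05 and for TRPM5, with the group mean (line) and SD (bar, n = 3). In 6 of the 7 genes shSCR replicate 3 (blue triangle) is the highest sample, in TRPM8 it is the lowest of its group, and TRPM5 is listed at 0 in every shSCR sample, so no mean is drawn.

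Among the remaining potassium channel genes no gene was called. KCNK1, a leak channel that stays open at rest (chromosome 1, 233749750 to 233808258), had the largest increase of the 32 tested, 0.97 (SE 0.47, limma adjusted p = 0.356), with 0.49 to 1.46 when each library was left out in turn. It was listed at 3.45, 16.1 and 7.59 FPKM in shSCR and at 16.8, 15.9 and 15.3 FPKM in shPCAT1. The groups overlapped, and the spread lay within shSCR, whose replicate 2 stood at the shPCAT1 level. The other leak channel, KCNK5, had a change of 0.26 (SE 0.25). KCNJ11, the pore of the ATP-sensitive potassium channel, was listed at 0, 0.920 and 7.43 FPKM in shSCR and at 0, 0.502 and 0.365 FPKM in shPCAT1, so its level rested on shSCR replicate 3. KCNJ11 averaged 0.289 FPKM in shPCAT1, so it was listed only through shSCR and could differ in that direction only. The other inward rectifiers were below a mean of 1 FPKM: KCNJ9, a subunit of G-protein-gated channels, lay at 0.0954 to 0.210 FPKM in shSCR and at 0.542 to 0.678 FPKM in shPCAT1, and KCNJ14 overlapped between groups. KCNJ9 averaged 0.154 FPKM in shSCR and was listed only through shPCAT1, so its separation is no support for an increase. Of the calcium-activated channels, KCNN2, which has a small conductance, was listed at 4.17, 4.65 and 1.75 FPKM in shSCR and at 1.96, 2.50 and 2.33 FPKM in shPCAT1. Here shSCR replicate 3 was the lowest of the 6 samples, the change was -0.41 (SE 0.31, adjusted p = 0.514), and without that library it was -0.73 (SE 0.13, adjusted p = 0.0430). KCNMA1, the pore of the large-conductance channel, was listed at 1.34 to 1.63 FPKM in shSCR and at 1.78, 1.58 and 0.105 FPKM in shPCAT1, and its change of -0.31 (SE 0.39) turned to 0.11 without shPCAT1 replicate 3.

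KCNAB2, a cytoplasmic beta subunit of voltage-gated potassium channels (chromosome 1, 6052761 to 6158634), was expressed more highly than any potassium pore, with a mean of 17.3 FPKM. It was listed at 17.1, 19.3 and 27.6 FPKM in shSCR and at 13.2, 13.3 and 13.2 FPKM in shPCAT1. The groups did not overlap and the shPCAT1 samples were nearly equal. The change was -0.62 (SE 0.20, adjusted p = 0.224), and -0.43 without shSCR replicate 3 (adjusted p = 0.0533). The other beta subunit, KCNAB3, was not tested, and it lay at 0.464 to 0.566 FPKM in shSCR and at 0.576 to 0.919 FPKM in shPCAT1, higher with no overlap.

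CACNA1H, a pore of low-voltage-activated (T-type) calcium channels (chromosome 16, 1203241 to 1271768, plus strand), had the largest change of all channel genes. It was listed at 7.77, 6.03 and 27.4 FPKM in shSCR and at 0.880, 0.981 and 1.13 FPKM in shPCAT1. The groups did not overlap, and shSCR replicate 3 lay far above the other shSCR samples. The change was -2.60 (SE 0.53, limma adjusted p = 0.0991). Without shSCR replicate 3 it was -1.98 (SE 0.15, adjusted p = 0.0137), and after correction for GC content it was -2.08 (SE 0.25, adjusted p = 0.0304). The transcripts behind the sum differed between shSCR samples. CACNA1H-201 was listed at 5.20 and 3.67 FPKM in shSCR replicates 1 and 2 and at 0 in replicate 3, while CACNA1H-006 was listed at 0.205, 0.0226 and 15.3 FPKM. In shPCAT1 CACNA1H-201 was listed at 0.016, 0 and 0 FPKM and CACNA1H-006 at 0.194, 0.219 and 0.603 FPKM. Both averaged below 0.5 FPKM there and stood in the table only through shSCR. The decrease and the calls of the sum therefore rest in part on transcripts whose direction was fixed by the listing. CACNA1H-001 was listed at 2.37, 2.34 and 12.1 FPKM in shSCR and at 0.670, 0.762 and 0.530 FPKM in shPCAT1, and its change as a transcript was -1.68 (SE 0.58, adjusted p = 0.490 over all transcripts). No channel transcript was called when transcripts were tested in place of gene sums (limma, 0 of 47, against 0.0977% of all transcripts). At an unadjusted p of at most 0.05, 5 of the 47 were lower and 1 higher, beside 4.92% and 4.53% of all transcripts.

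**Figure D3:**
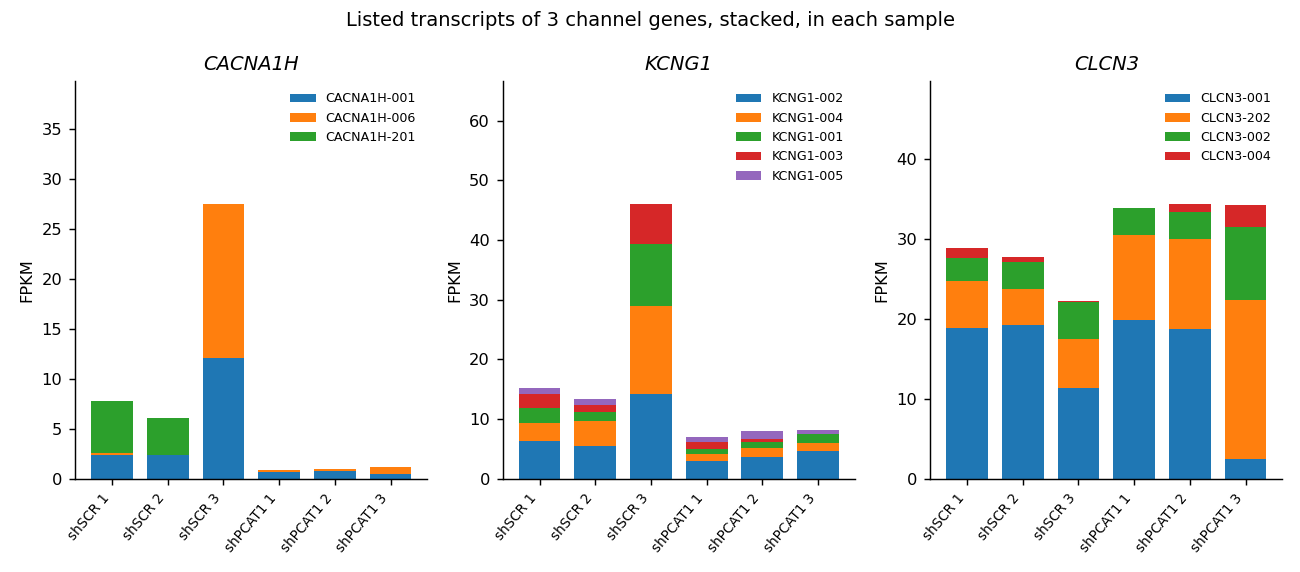
FPKM of the listed transcripts of CACNA1H, KCNG1 and CLCN3, stacked, in each of the 6 samples (bars from 0). The shSCR replicate 3 bars of CACNA1H and KCNG1 reach 27.4 and 46.0 FPKM, and the CLCN3 total is similar in the shPCAT1 samples while its transcripts change places in shPCAT1 replicate 3.

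The other calcium channel genes were not called. CACNA1D, a high-voltage-activated (L-type) pore, lay below 1 FPKM in every sample. The beta subunits, which bring high-voltage-activated pores to the membrane, had changes of 0.16 (SE 0.25) for CACNB1, 0.28 (SE 0.23) for CACNB2 and -0.04 (SE 0.22) for CACNB3, with overlapping groups. CACNB3, the highest of the class with a mean of 8.004 FPKM, changed sign under several settings of the processing. No gene for an alpha-2-delta or gamma subunit of these channels was among the 40.

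TRPM8 (hg19, chromosome 2, 234826043 to 234928166, plus strand, 1 listed transcript of 26 exons) was listed at 3.96, 3.60 and 2.93 FPKM in shSCR and at 2.24, 2.10 and 2.15 FPKM in shPCAT1. Every shPCAT1 sample lay below every shSCR sample, and shSCR replicate 3 was the lowest of its group, unlike in the other 6 genes with an unadjusted p of at most 0.05. The mean was 3.50 ± 0.521 FPKM in shSCR and 2.16 ± 0.0738 FPKM in shPCAT1 (SD, n = 3 each), 1.62-fold lower. On the log2(FPKM + 1) scale the change was -0.50 (SE 0.17, limma unadjusted p = 0.0259, adjusted p = 0.237), and it did not pass the test. Without shSCR replicate 3 it was -0.59 (SE 0.10, adjusted p = 0.0439). After correction for GC content it was -0.61 (SE 0.14, adjusted p = 0.105). It lay between -0.59 and -0.43 when each library was left out in turn. The luminal marker TMPRSS2, an androgen-regulated protease gene, had a change of -1.22 (SE 0.26, adjusted p = 0.116) with no overlap between groups. The part of the luminal markers in the change of TRPM8 was not tested.

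The other TRP genes were not called. TRPV6 (chromosome 7, 142568956 to 142583507, minus strand) had the highest level of the TRP channels, with 25.1, 20.5 and 28.5 FPKM in shSCR and 18.2, 16.99 and 19.3 FPKM in shPCAT1. The groups did not overlap, and the change was -0.41 (SE 0.17, adjusted p = 0.292). TRPM7, a magnesium- and calcium-permeable channel joined to a kinase, was the highest TRPM gene, at 8.52, 8.07 and 4.84 FPKM in shSCR and 9.88, 9.75 and 9.16 FPKM in shPCAT1. Its groups did not overlap, with shPCAT1 higher, and its change was 0.41 (SE 0.23, adjusted p = 0.394), or 0.19 without shSCR replicate 3. TRPM4, a calcium-activated channel for monovalent cations, was listed at 6.28, 7.13 and 5.40 FPKM in shSCR and at 6.58, 3.10 and 1.74 FPKM in shPCAT1. The shPCAT1 samples of TRPM4 were widely spread and overlapped with shSCR (-0.72, SE 0.38, adjusted p = 0.383), and the change ran from -1.11 without shPCAT1 replicate 1 to -0.38 without shPCAT1 replicate 3. The changes of TRPM2, TRPV1 and TRPC1 were -0.19 (SE 0.22), -0.11 (SE 0.37) and -0.06 (SE 0.48), and each turned positive under at least 1 other setting. The non-channel TRPC4AP had the highest mean of all 40 genes, 30.2 FPKM, with 29.1 to 35.98 FPKM in shSCR and 28.2 to 29.4 FPKM in shPCAT1.

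TRPM5, a calcium-activated cation channel of taste cells (chromosome 11, 2426139 to 2444272, minus strand), had no FPKM above 0 in shSCR and was listed at 1.69, 1.94 and 1.69 FPKM in shPCAT1. It was the only channel gene listed at 0 in a whole group, as were 0.203% of all listed genes in shSCR, and no fold is given because the depth behind a value of 0 is unknown. Both of its listed transcripts, TRPM5-004 and TRPM5-003, were listed at 0 in shSCR and above 0 in each shPCAT1 sample. Its mean of 0.887 FPKM put it below the limit for testing. It was called as higher where that limit was lowered to 0.5 FPKM (adjusted p = 0.0287, beside 0.976% of all genes called) or removed (adjusted p = 0.0228, beside 0.886%). Since TRPM5 was listed at 0 in shSCR, it stood in the table only through its level in shPCAT1. A gene listed in this way can differ in 1 direction only, so these calls are no support for the change.

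All 6 CLC genes were tested, none was called, and 4 of their changes lay below 0. CLCN3, an endosomal chloride/proton exchanger (chromosome 4, 170541672 to 170644824), was the most highly expressed channel gene, at 28.9, 27.7 and 22.3 FPKM in shSCR and 33.9, 34.3 and 34.2 FPKM in shPCAT1. The groups did not overlap, with shPCAT1 higher, and the change was 0.37 (SE 0.15, adjusted p = 0.292). The highest transcript alone, CLCN3-001, changed by -0.60 (SE 0.73), since it fell to 2.46 FPKM in shPCAT1 replicate 3 while CLCN3-202 reached 19.9 FPKM there. CLCN2, a chloride channel of the plasma membrane, was listed at 5.04, 5.81 and 10.6 FPKM in shSCR and at 3.77, 4.26 and 3.75 FPKM in shPCAT1 (-0.67, SE 0.27, adjusted p = 0.291). CLCN7, the lysosomal exchanger, was listed at 6.65, 5.09 and 18.2 FPKM in shSCR and at 4.14, 3.49 and 5.00 FPKM in shPCAT1. In CLCN2 and CLCN7 the groups did not overlap, and shSCR replicate 3 was the highest sample. Without that library the change of CLCN7 was -0.40 in place of -0.90, and that of CLCN2 was -0.38. CLCN4 and CLCN5, which are endosomal exchangers, did not overlap between groups in opposite directions: CLCN4 had 1.71 to 1.87 FPKM in shSCR and 1.28 to 1.37 FPKM in shPCAT1, and CLCN5 had 1.07 to 1.95 and 2.24 to 2.67 FPKM. Their changes were -0.26 (SE 0.17) and 0.42 (SE 0.21). CLCN6, of late endosomes, overlapped between groups.

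SCN4B, a beta subunit of voltage-gated sodium channels, was the only SCN gene among the 40. It was listed at 0.463, 0.181 and 0.743 FPKM in shSCR and at 1.41, 1.21 and 1.44 FPKM in shPCAT1. Its groups did not overlap, with shPCAT1 higher, but its mean of 0.908 FPKM lay below the limit for testing. SCN4B averaged 0.462 FPKM in shSCR and so stood in the table only through its level in shPCAT1. Its separation is therefore no support for an increase. No gene for a sodium channel pore was among the 40. Over all 40 genes, tested or not, 12 were lower and 9 higher in shPCAT1 with no overlap between groups, beside 18.1% and 14.4% of all listed genes. TRPM5, SCN4B and KCNJ9 among the higher and KCNH3 among the lower were listed only through the group where they are high. The listing fixed the direction of these genes, so the counts are no evidence of direction for them.

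KCNQ1 and TRPM8 were set against the other 30 tested channel genes as a description, with no test, since the members were chosen with results known. The changes of those 30 ran from -2.60 to 0.97 with a median of -0.17. KCNQ1 differed from that median by -1.84, and 1 of the 30, CACNA1H, lay lower. TRPM8 differed from it by -0.34, with 9 of the 30 lower and 21 higher. Over all genes tested, 0.360% had a change below that of KCNQ1 and 19.3% a change below that of TRPM8. Of the other TRPM genes tested, 1 of 3 had a change above 0, TRPM7.

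GC content varied together with the changes. The tested channel genes had a median GC content of 57.8% in their highest transcript, against 48.6% over all genes tested. Of the 22 channel genes above the latter value, 17 had a change below 0, and of the 9 below it, 5 had a change above 0. Spearman's rho of GC content and change was -0.57 over 31 channel genes and -0.53 over all genes, all measured in the same 6 libraries. Over the channel genes it was -0.44 without shSCR replicate 3 and -0.26 after correction for GC content. With that correction 16 changes lay below 0 and 15 above, with a median of -0.10, and KCNQ1 (-1.55, SE 0.16, adjusted p = 0.0205) and CACNA1H were called, beside 1.29% of all genes. KCNQ1 has a GC content of 63.6%, KCNH2 of 66.8%, KCNG1 of 66.1% and CACNA1H of 66.1%, whereas TRPM8 has 43.8% and so lay among the AT-rich members. Of those 9 AT-rich members TRPM8 alone had an unadjusted p of at most 0.05. Among the changes that shrank by more than 1.5 times with the correction, and were not called with it, were -0.99 for KCNH2, -0.83 for KCNG1, -0.58 for KCND3, -0.31 for KCNAB2, -0.44 for CLCN7, -0.32 for CLCN2, -0.27 for TRPM4, -0.10 for TRPV6 (adjusted p = 0.742), 0.14 for CLCN3 and 0.11 for TRPM7. The part of GC content in these changes was not tested. With the correction and without shSCR replicate 3, 5 channel genes were called (KCNQ1, TRPM8, CACNA1H, KCNG1 and KCNH2), beside 6.2% of all genes.

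**Figure D4:**
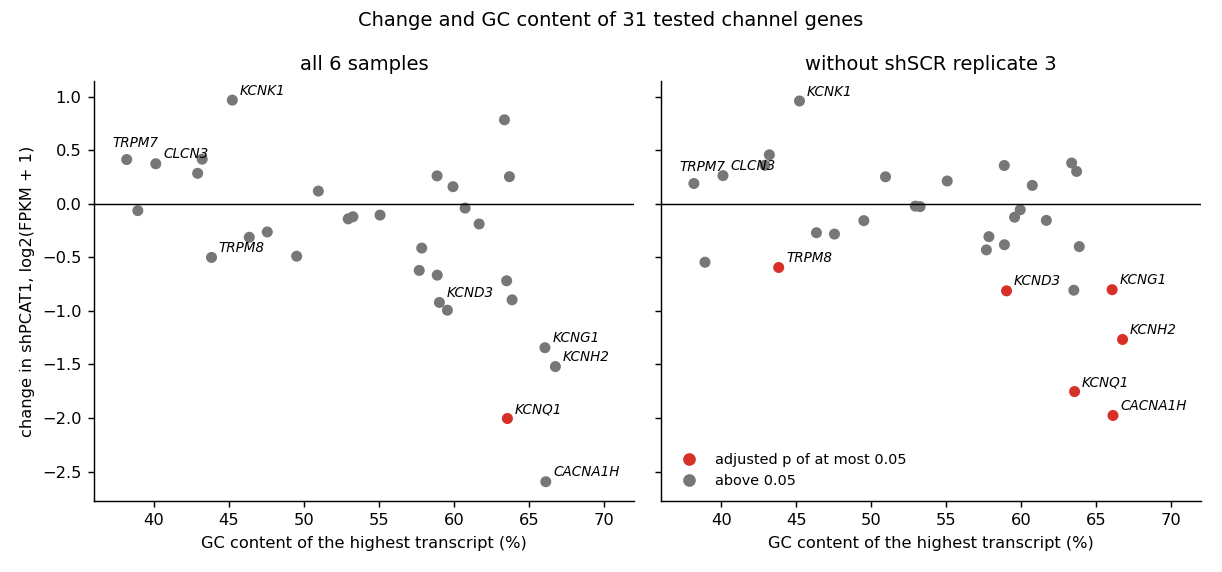
Change in shPCAT1 against shSCR (vertical axis, log2(FPKM + 1) scale) against the GC content of the highest transcript (horizontal axis, %) for 31 tested channel genes, with all 6 samples (left) and without shSCR replicate 3 (right). Red genes have an adjusted p of at most 0.05: KCNQ1 on the left, and on the right KCNQ1, KCNH2, CACNA1H, KCND3, KCNG1 and TRPM8 (KCNN2 has no GC value and is not drawn).

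The genes around KCNQ1 were read from the same table. Within 500 kb it listed 11 genes, of which 9 were tested and 0 called by limma. All 9 changes lay below 0, from -0.94 to -0.02, with 3 at an unadjusted p of at most 0.05 (ASCL2, SLC22A18 and OSBPL5). Over all genes tested, 54.2% of the changes lay below 0 and 10% of genes were lower at that p. After correction for GC content the change of SLC22A18 was -0.12 (adjusted p = 0.885) and that of OSBPL5 -0.25 (adjusted p = 0.436). With that correction and without shSCR replicate 3 these changes were -0.52 (limma adjusted p = 0.150) and -0.37 (adjusted p = 0.0874). Without shSCR replicate 3 alone OSBPL5 was called (-0.51, SE 0.08, adjusted p = 0.0399, beside 8.03% of all genes). On the left the nearest was TRPM5, 21.9 kb away, which was listed at 0 in shSCR and above 1 FPKM in shPCAT1, the reverse of KCNQ1. On the right the nearest was CDKN1C, an inhibitor of cyclin-dependent kinases that lies 34.1 kb away. CDKN1C was listed at 2.03, 2.08 and 1.26 FPKM in shSCR and at 0.185, 0.0755 and 0.117 FPKM in shPCAT1, with no overlap, and its mean of 0.958 FPKM was below the limit for testing. With no limit it was called (-1.30, SE 0.19, limma adjusted p = 0.0488, beside 0.886% of all genes called). With a limit of 0.5 FPKM it was not (adjusted p = 0.0522, beside 0.976%). CDKN1C averaged 0.126 FPKM in shPCAT1 and so stood in the table only through its level in shSCR. The call with no limit is therefore no support for a decrease. ASCL2, a transcription factor gene on the far side of TRPM5, was listed at 7.43, 7.15 and 8.31 FPKM in shSCR and at 3.71, 3.49 and 3.32 FPKM in shPCAT1 (-0.94, SE 0.15, adjusted p = 0.0604). ASCL2 has a GC content of 69.6%, and after correction for GC content its change was -0.33 (adjusted p = 0.664). With that correction and without shSCR replicate 3 ASCL2 was called (-0.74, SE 0.10, limma adjusted p = 0.0339, beside 6.2% of all genes). It was also called without that library alone (-0.88, SE 0.09, adjusted p = 0.0210, beside 8.03%). The changes nearest to 0 were those of PHLDA2 and CARS, which lie beyond CDKN1C, with -0.02 (SE 0.18) and -0.03 (SE 0.14). After correction for GC content PHLDA2 and CARS had changes of 0.42 (SE 0.37) and 0.16 (SE 0.13). Without shSCR replicate 3 besides, their changes were -0.02 (SE 0.10) and 0.06 (SE 0.10). The part of GC content in the changes of these neighbours was not tested. The 4 listed genes within 500 kb of TRPM8 were not called. The nearest on its left was HJURP, a histone chaperone gene, with a change of 0.04 (SE 0.16).

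**Figure D5:**
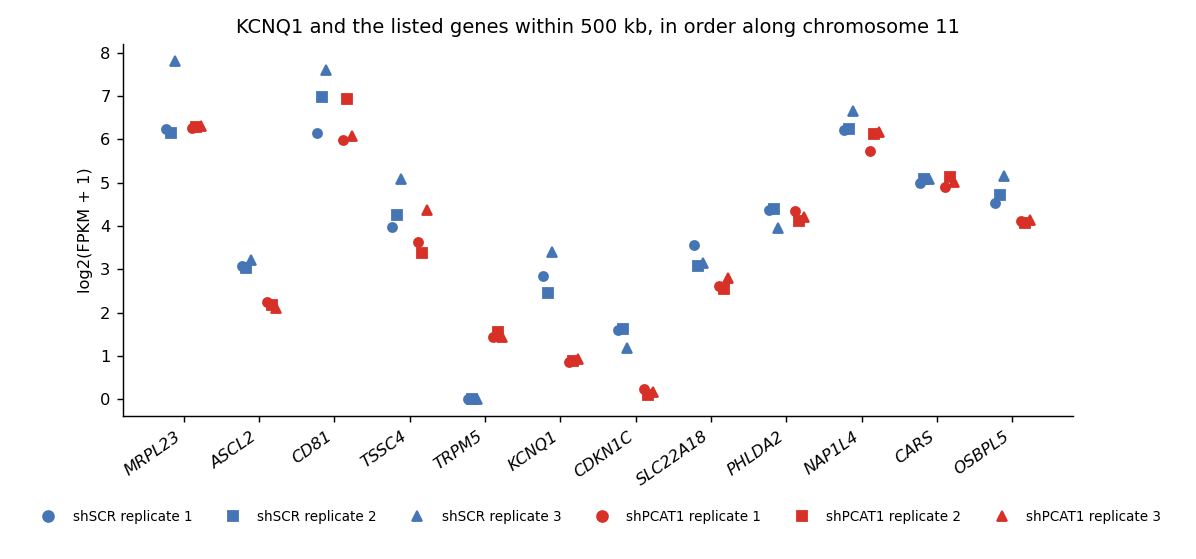
Level of KCNQ1 and of the 11 listed genes within 500 kb, in order along chromosome 11 (vertical axis, log2(FPKM + 1), points for each sample, blue shSCR and red shPCAT1). KCNQ1, ASCL2, CDKN1C, SLC22A18, NAP1L4 and OSBPL5 are lower in every shPCAT1 sample than in every shSCR sample, as are 18.1% of all listed genes. TRPM5 is listed at 0 in every shSCR sample.

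Other channels and the ion pumps were compared from lists of named genes, beside a background of 0.878% of all genes tested that were called. Of 14 tested genes for store-operated and intracellular calcium channels, 1 was called, higher: MCU, the pore of the mitochondrial calcium uniporter, was listed at 3.92, 3.98 and 3.57 FPKM in shSCR and at 11.4, 11.7 and 11.4 FPKM in shPCAT1 (1.37, SE 0.14, limma adjusted p = 0.0237). Of 9 tested ion pumps, 1 was called, higher: ATP2B1, a plasma membrane calcium pump, was listed at 12.4, 12.0 and 11.9 FPKM in shSCR and at 38.6, 35.7 and 36.4 FPKM in shPCAT1 (1.53, SE 0.13, adjusted p = 0.0189). Of 16 tested other cation channels, 1 was called, lower: TMC6, of the transmembrane channel-like family, was listed at 25.6, 23.7 and 30.5 FPKM in shSCR and at 11.7, 9.97 and 8.65 FPKM in shPCAT1 (-1.31, SE 0.18, adjusted p = 0.0418). After correction for GC content the change of TMC6 was -0.84 (adjusted p = 0.167), and its highest transcript alone changed by 0.07 (adjusted p = 0.979). Of 14 tested chloride channel genes outside the CLC family 0 were called by limma. At an unadjusted p of at most 0.05 there were 2, CLCC1 (0.62, SE 0.14, adjusted p = 0.128) and LRRC8A (-1.10, SE 0.28, adjusted p = 0.155). By the same measure 5 of the other cation channels were lower and 0 higher, and in the calcium channels and in the pumps 1 gene each was lower (ORAI2 and ATP2C2) beside the 1 that was called, against the 10% lower and 7.23% higher of all genes. In MCU and ATP2B1, unlike in KCNQ1, shSCR replicate 3 lay close to the other shSCR samples. The median changes of these lists were 0.07 for the calcium channels, 0.04 for the pumps, -0.28 for the other cation channels and 0.16 for the chloride channels, against -0.05 over all genes.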

How the data were processed

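The authors sequenced poly(A) RNA from LNCaP-AI cells in 6 samples (3 shSCR, 3 shPCAT1) as stranded single-end reads of 50 bases. The deposited table gives FPKM per transcript, computed by the authors with Ballgown on hg19 with Ensembl models. The study's methods name TopHat and the submitters' processing notes HISAT2 2.0.4, and which made the table is not given in the sources used here. The deposited table also holds the authors' comparison, as group means on a log2(FPKM + 1) scale, a log2 difference, a fold ratio, and p-values and q-values, and none of these was used. Depth cannot be read from the table, so no counting interval is given, and an FPKM of 0 is given as listed at 0.

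FPKM were summed per gene symbol. Genes that averaged 1 FPKM or more were tested on log2(FPKM + 1), shPCAT1 minus shSCR, 3 against 3 with no covariate. The fit used limma 3.58.1 (R 4.3.3) with a robust variance trend (lmFit and eBayes), and genes with an adjusted p of at most 0.05 were called. A fold change on this scale understates the change of low genes, and folds printed as such are ratios of mean FPKM. An exact permutation test of 3 against 3 cannot go below p = 0.1 and was not used. GC content came from GENCODE transcripts (v44lift37) matched by identifier, and promoters from RefSeq. The members and lists were chosen with earlier results of these data known. Named were KCNQ1, TRPM8, members called or with an unadjusted p of at most 0.05, the highest member of each class and others in the account of their class, of the other lists called genes and up to 2 with the smallest p, and of neighbours called genes and the nearest on each side. ASCL2, SLC22A18, OSBPL5, NAP1L4, PHLDA2 and CARS were named after their values were seen. Some genes that the rule covers are not reported here by name. Alternatives changed the pseudocount (0.1), the filter (none, 0.5 or 5 FPKM), the scaling (upper quartile, quantile), the model (replicate block, limma without trend or robust fit, ordinary test), the use of the highest transcript only, a correction for GC content, and the libraries left out. Tables were made with Python 3.11.15, numpy 2.4.6 and pandas 2.3.3.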

Additional observations from a re-analysis of the deposited data

How the results depend on the processing

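Over 18 alternatives, 572 recomputed values of 33 channel and pump genes other than KCNQ1 and TRPM8 kept their direction and side of the threshold in 507 cases. TMC6 lost its call in 9 alternatives besides the one that turned its sign, and ATP2B1 and MCU lost theirs in 7 each. KCNQ1 kept its direction in all 17 alternatives that tested it (a filter at 5 FPKM removed it) and lost its call in 8. Its change was -2.01 with the ordinary test (adjusted p = 0.0712) and in the fit with the highest transcripts only (adjusted p = 0.0863), and -2.23 to -1.75 with libraries left out in turn. With the replicate number as a block the change of KCNQ1 was -2.01 (adjusted p = 0.224), 0 channel genes and 0 of the other channel and pump genes were called, and over all genes 2 were. Deviations of samples with the same number correlated at -0.02, -0.01 and 0.02. With 3 samples a group these values cannot tell whether samples with the same number were cultured or prepared together. TRPM8 passed the threshold in 2 of 17, without shSCR replicate 3 (-0.59, leave-one-out range -0.59 to -0.43) and with the GC correction besides (-0.64, adjusted p = 0.0442). The channel genes called numbered 2 with no filter (beside 0.886% of all genes) or a filter at 0.5 FPKM (0.976%). They numbered 0 with a filter at 5 FPKM (0.677%) or highest transcripts only (0.151%), and 2 with GC correction (1.29%). With that and without shSCR replicate 3 there were 5 (6.2%), and 0 to 7 with libraries left out (0.037% to 8.03%). With the ordinary test the called channel gene was CLCN4 (adjusted p = 0.0457). Neighbours called, TRPM5 apart, numbered 1 with no filter (0.886% of all genes), without trend or robust fit (1.22%) and with the ordinary test (1.85%). They also numbered 1 with GC correction without shSCR replicate 3 (6.2%), and 0 to 2 with libraries left out (0.037% to 8.03%). Of the other channels and pumps 3 were called (beside 0.878% of all genes) and 0 with highest transcripts only (0.151%). The number was 8 with GC correction without shSCR replicate 3 (6.2%), and 0 to 8 with libraries left out (0.037% to 8.03%). KCNQ1 differed from the median of the others by -2.56 with a pseudocount of 0.1, and TRPM8 differed from it by -0.65 with GC correction and by -0.66 without shSCR replicate 3 besides. Leaving out libraries gave -2.005 to -1.61 for KCNQ1 and -0.45 to -0.22 for TRPM8.

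The sign turned for 15 genes, none of them called except TMC6. With the highest transcript only the changes were 0.060 for CLCN2, -0.60 for CLCN3, -0.22 for CLCN5, 0.11 for TRPM2, 0.66 for CACNB3 and 0.071 for TMC6. With GC correction they were 0.22 for TRPM2, 0.071 for TRPC4AP, 0.042 for CLCN6, 0.14 for TRPV1 and 0.35 for CACNB3. With that and without shSCR replicate 3 they were 0.015 for KCNJ11, 0.053 for TRPC4AP, 0.053 for CLCN6, 0.31 for TRPV1 and 0.32 for CACNB3. With quantile normalization they were 0.015 for TRPV1, 0.017 for CACNB3 and 0.0072 for TRPC1, with upper quartile scaling 0.047 for CACNB3, and with a pseudocount of 0.1 0.35 for TRPC1. With libraries left out in turn they ran from -0.056 to 0.29 for CACNB1, -0.17 to 0.17 for CACNB3, -0.38 to 0.033 for CLCN6, -0.55 to 0.11 for KCNMA1, -0.074 to 0.25 for KCNQ5, -1.08 to 0.15 for KCNS3, -0.55 to 0.21 for TRPC1 and -0.48 to 0.21 for TRPV1. The cause of these changes was not tested, and the unknown depth limits every value near 1 FPKM.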
